A study of Oryza sativa with 15 samples.

Results

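The CpG regions of rice exons are described here. They are the rows of 3 lists of differentially methylated regions (DMRs) whose context is CpG and which the deposited annotation places in an exon of a named gene. There were 567 of them among 11392 listed regions. The CK list held 251 of its 5122 regions in this class, the FP list 133 of 2731, and the pOsNAR2.1-OsNAR2.1 list 183 of 3539. They made up 5.06% of the CpG regions in the CK list, 4.90% in the FP list and 5.31% in the pOsNAR2.1-OsNAR2.1 list, and they lay in 490 distinct genes. Regions in introns and upstream of genes, and those with no gene, made up the rest of the CpG regions.

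Methylation was measured by whole-genome bisulfite sequencing (WGBS), in which unmethylated cytosines are read as thymine, on shoots of 10-day-old seedlings of the japonica cultivar wuyujing 7. There were 12 libraries, 3 in each of 4 groups. CK plants were T0 plants regenerated from callus without a transgene, grown through callus and shoot induction media and taken from 3 independent calli. The pOsNAR2.1-OsNAR2.1 plants were T4 plants carrying an extra copy of OsNAR2.1, a partner protein of the high-affinity nitrate transporters, under its own promoter. FP plants (named SDWT in the study) were T4 plants without the transgene, which segregated from the same T0 heterozygote. WYJ7 is the untransformed wild type. FP and pOsNAR2.1-OsNAR2.1 are thus each 1 line from 1 regenerated plant, and both also went through hygromycin selection, so line and treatment cannot be told apart. CK differs from both in generation as well.

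In plants, CG methylation is copied onto the new strand after DNA replication by the maintenance methyltransferase MET1, so that a CG pattern can pass through many cell divisions and through meiosis. Many expressed plant genes carry CG methylation in their exons and little in the other sequence contexts, a state known as gene body methylation. Genes that derive from transposons are usually methylated in every context. CpG regions of exons may therefore hold both kinds of sequence, and the lists do not tell them apart.

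Each value is the methylation level of a region in a library, given by the authors as a percent and averaged over the cytosines of the region. The read depth behind a region is unknown, so no interval from depth can be given. A region is called hyper where the mean of the 3 libraries of the line was above the WYJ7 mean, and hypo where it was below. All 3 comparisons use the same WYJ7 libraries. The lists hold regions that the authors called in these very contrasts. The difference between a line and WYJ7 is therefore a description and carries no p-value, and 3 libraries against 3 could not give an exact permutation p below 0.1.

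Most exon regions were less methylated than WYJ7 in CK plants, and most were more methylated than WYJ7 in the transgenic line. In CK, 61 exon regions were hyper (24.3%, against 28.3% of all CpG regions in that list) and 188 were hypo (74.9%, against 71.5%). In FP, 73 were hyper (54.9%, against 51.5%) and 60 hypo (45.1%, against 48.2%). In pOsNAR2.1-OsNAR2.1, 138 were hyper (75.4%, against 78.0%) and 43 hypo (23.5%, against 21.2%). The 95% Wilson interval of the exon share covered counting error only and ran from 19.4 to 30.0% in CK, from 46.4 to 63.1% in FP and from 68.7 to 81.1% in pOsNAR2.1-OsNAR2.1. The share for all CpG regions of the list fell inside the interval each time, so the split between hyper and hypo in exons was near that of the list as a whole.

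Chromosomes and exon lengths were looked at one by one. The exon hyper share was above that of the other CpG regions of the same chromosome on 3 of 12 chromosomes in CK, on 8 in FP and on 7 in pOsNAR2.1-OsNAR2.1. In exons of up to 200 bp, 28.1% of 96 regions were hyper in CK, 56.8% of 37 in FP and 71.9% of 57 in pOsNAR2.1-OsNAR2.1. In exons of intermediate length it was 16.0% of 75 regions in CK, 53.2% of 47 in FP and 76.8% of 56 in pOsNAR2.1-OsNAR2.1. In exons over 1000 bp, 27.5% of 80 regions were hyper in CK, 55.1% of 49 in FP and 77.1% of 70 in pOsNAR2.1-OsNAR2.1. The majority direction was thus the same in all 3 length classes of each line. A further 4 exon regions, 2 each of the CK and pOsNAR2.1-OsNAR2.1 lists, had a level of 0 in all 6 libraries of their list and so no direction.

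The exon hyper regions of the lines reached levels near 60%. In CK hyper regions the mean level was 64.6% ± 2.73 in CK libraries, against 35.7% ± 1.37 in WYJ7 libraries (SD, n = 3 each). In FP hyper regions it was 59.6% ± 2.75 in FP libraries, against 31.4% ± 3.19 in WYJ7 libraries. In pOsNAR2.1-OsNAR2.1 hyper regions it was 63.9% ± 1.18 in the line, against 35.8% ± 1.19 in WYJ7. No library mean of a line came near a library mean of WYJ7 in these sets, which the choice of the regions fixes.

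The exon hypo regions differed between the lists in their WYJ7 level. In CK hypo regions the mean level was 48.8% ± 5.29 in CK libraries, against 78.6% ± 0.71 in WYJ7 libraries (SD, n = 3 each). In FP hypo regions it was 32.8% ± 1.75 in FP libraries, against 64.4% ± 2.74 in WYJ7 libraries. In pOsNAR2.1-OsNAR2.1 hypo regions it was 32.3% ± 0.24 in the line, against 62.5% ± 0.37 in WYJ7. The CK hypo regions were thus mostly heavily methylated in WYJ7 and at an intermediate level in CK, whereas those of the other lists were lower in both groups. Of the 188 hypo regions in CK, 122 (64.9%) had a WYJ7 mean of at least 80%, against 55.1% of all CpG hypo regions in the list. That held for 23 of 60 (38.3%, against 30.7%) in FP and for 17 of 43 (39.5%, against 33.0%) in pOsNAR2.1-OsNAR2.1. The contrast between CK and the others was thus one of the whole lists, and not of exons alone.

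**Figure D1:**
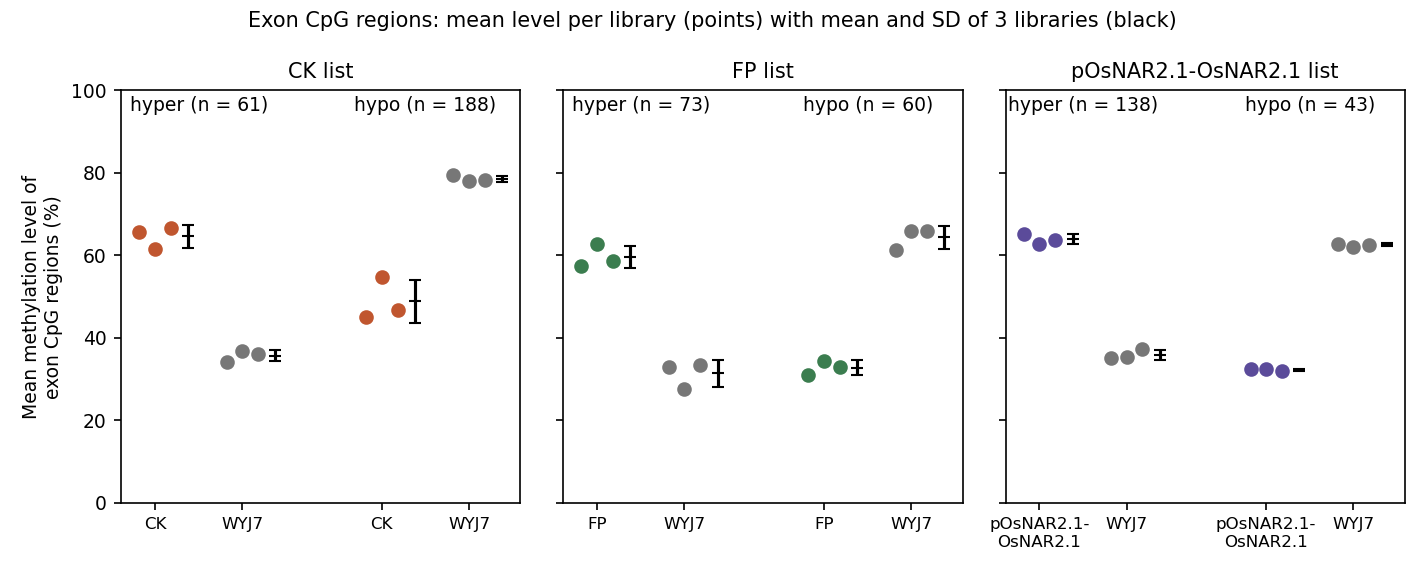
Mean methylation level (%) of the exon CpG regions in each library, by list and direction. Each point is 1 library, and the black bar gives the mean and SD of 3 libraries. In the CK hypo regions CK library 2 averaged 54.8%, above the 44.9% and 46.7% of the other CK libraries.

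**Figure D2:**
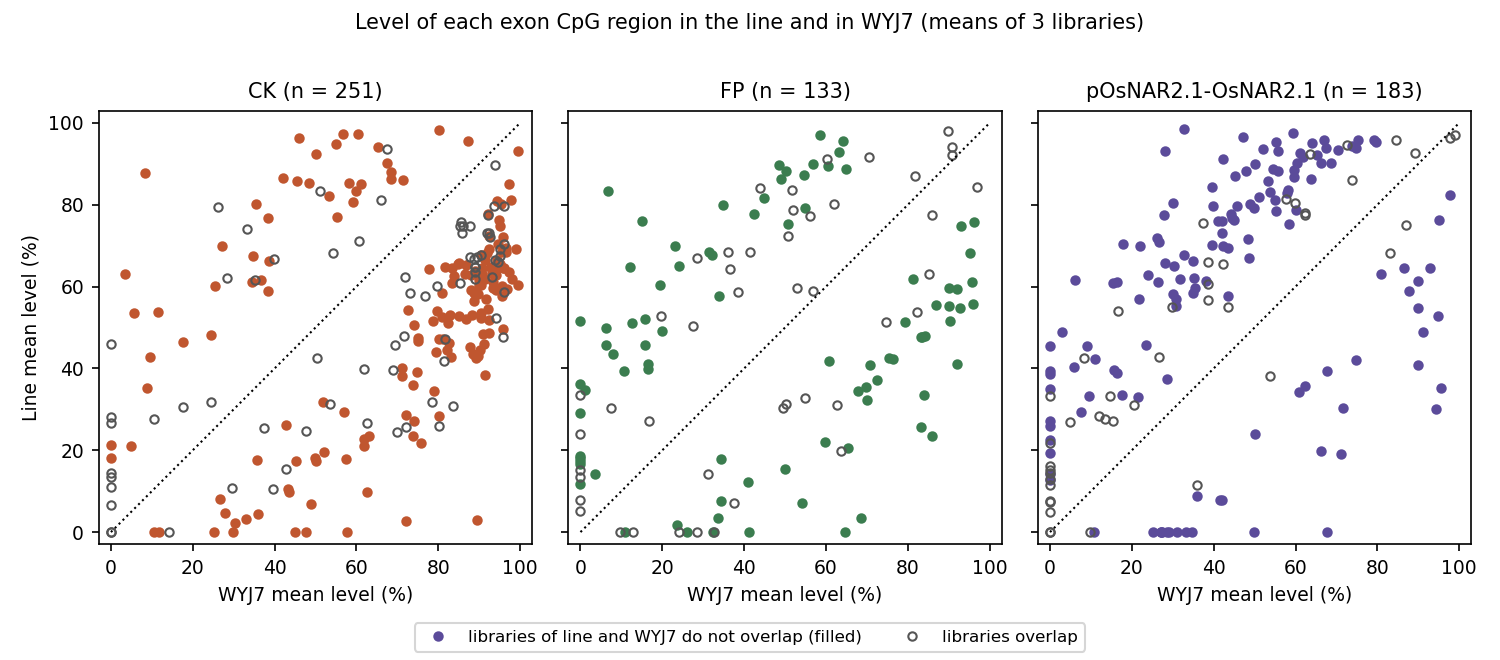
Mean level (%) of each exon CpG region in the line (vertical axis) and in WYJ7 (horizontal axis), means of 3 libraries each. Filled points are regions whose line and WYJ7 libraries do not overlap, and the dotted line marks equal levels. In CK 122 of the 188 points below the line lie at WYJ7 levels of 80% or more, and in pOsNAR2.1-OsNAR2.1 138 of 183 points lie above it.

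Exon regions had higher levels in WYJ7 than the other CpG regions of the same list. Against the other classes pooled, this was seen in both directions and all 3 lists. In hypo regions the WYJ7 mean was 78.6% in exons, against 73.4% in the other CpG regions of the CK list. It was 64.4% in exons, against 58.2%, in the FP list, and 62.5% in exons, against 58.4%, in the pOsNAR2.1-OsNAR2.1 list. In hyper regions the WYJ7 mean was 35.7% in exons, against 28.2%, in the CK list. It was 31.4% in exons, against 28.3%, in the FP list, and 35.8% in exons, against 31.6%, in the pOsNAR2.1-OsNAR2.1 list. The exon excess over 3 WYJ7 libraries was 7.48 ± 1.51 points for CK hyper, 5.21 ± 1.07 for CK hypo and 6.17 ± 0.70 for FP hypo regions (SD, n = 3 libraries). It was 3.07 ± 3.19 points for FP hyper regions, where WYJ7 library 2 alone gave -0.57, so that excess is within the spread of the libraries. With hyper and hypo regions pooled, exon regions had the higher WYJ7 level on 10 of 12 chromosomes in the CK list. This was so on 10 in the FP list and 8 in the pOsNAR2.1-OsNAR2.1 list. The mix of directions on a chromosome enters these pooled counts, so they do not bear on the excess within a direction. Against introns alone, the WYJ7 mean of FP hyper regions was 31.4% in exons and 31.5% in introns, so that no excess was seen there. The excess over all other classes was 4.21 ± 0.86 points for pOsNAR2.1-OsNAR2.1 hyper and 4.10 ± 2.53 for its hypo regions. The CK hyper excess was 13.6 points where a minimum of 5 CpGs was asked for.

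The excess depended on which gene identifiers were kept. The exon regions carried 2 series of gene identifiers, OS locus IDs and EPlOSAG IDs, and the sources used here do not say what the EPlOSAG series is. EPlOSAG exons were short, with a median of 131 bp in CK, 118.5 bp in FP and 139 bp in pOsNAR2.1-OsNAR2.1, against 858, 807 and 1005.5 bp for OS locus exons. They held 75 of the exon regions in CK (29.9%), 22 in FP (16.5%) and 45 in pOsNAR2.1-OsNAR2.1 (24.6%). EPlOSAG IDs were then left out of exon and other regions alike, while regions with no gene were kept. This also dropped 1027 of 2094 upstream regions in CK, 568 of 1235 in FP and 737 of 1563 in pOsNAR2.1-OsNAR2.1. Both sides of the difference could therefore change. The excess was then 4.63 points for CK hyper, 4.93 for CK hypo, 2.00 for FP hyper and 6.95 for FP hypo regions. It was 1.62 points for pOsNAR2.1-OsNAR2.1 hyper and -1.24 for its hypo regions, so that the sign turned there. The direction of methylation hardly differed between the series. It was hyper in 22.7% of EPlOSAG and 25.0% of OS locus exon regions in CK, in 59.1% and 54.1% in FP, and in 73.3% and 76.1% in pOsNAR2.1-OsNAR2.1.

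**Figure D3:**
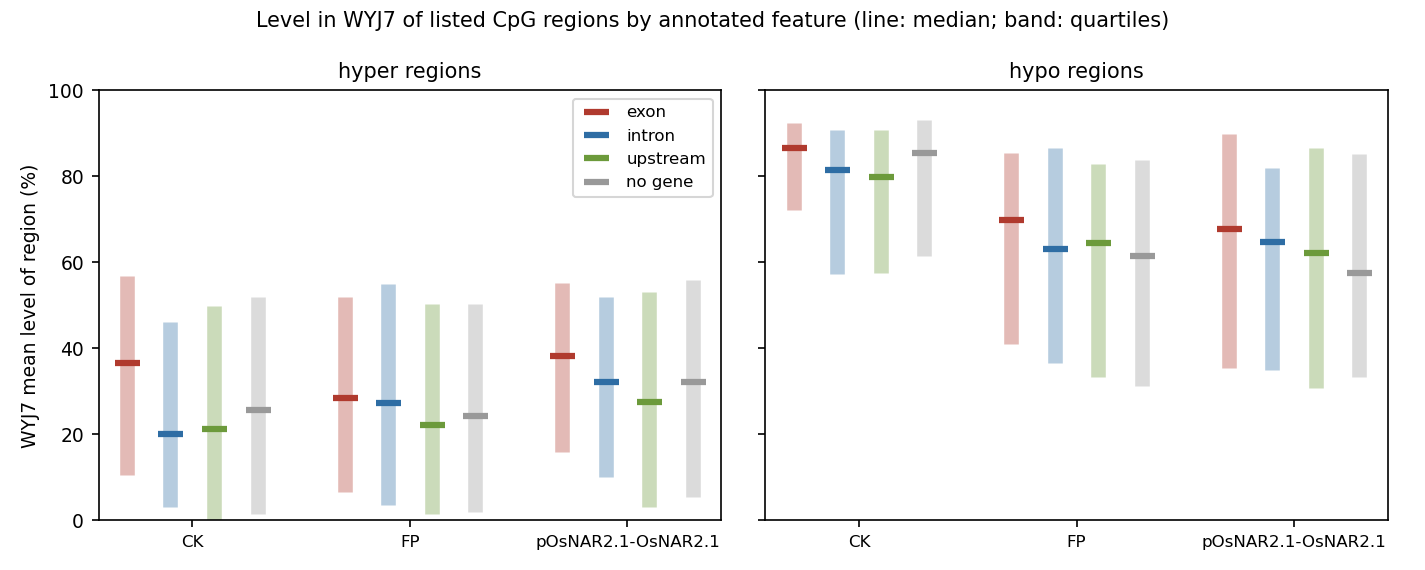
WYJ7 mean level (%) of listed CpG regions by annotated feature, for hyper and hypo regions of each list. Thick lines are medians and bands run from the lower to the upper quartile over regions. The exon median stands highest in each group of 4, as in CK hyper regions, where it was 36.6% in exons and 19.95% in introns.

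CK library 2 stood apart from the other CK libraries in exon regions, as it did in the whole list. In the CpG hypo regions outside exons the CK libraries averaged 39.3%, 48.5% and 40.1%. In the 188 exon hypo regions the CK libraries averaged 44.9%, 54.8% and 46.7%. CK library 2 was the nearest of the 3 to the WYJ7 mean in 97 hypo regions, against 42 for CK library 1 and 49 for CK library 3. It was within 10 points of the WYJ7 mean in 53 of them, against 12 for each of the others. In the 61 hyper regions it was the nearest in 32. The median absolute difference over the 251 exon regions was 19.4 points between CK libraries 1 and 2 and 18.9 between libraries 2 and 3, but 7.70 between libraries 1 and 3. The median SD over 3 libraries in exon regions was 13.4 points in CK, against 5.60 in WYJ7, and over all CpG regions of the list it was 14.8 in CK, against 5.31 in WYJ7. In FP it was 7.39 points, against 8.18 in WYJ7, and in pOsNAR2.1-OsNAR2.1 7.08 points, against 7.27 in WYJ7. CK plants came from separate calli, whereas the replicates of FP and of pOsNAR2.1-OsNAR2.1 belong to 1 line each, and the part of this in the spread was not tested.

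The spread shows in how many libraries carried a difference. All 3 CK libraries were 20 points or more beyond the WYJ7 mean, in the direction called, in 18 of 61 hyper (29.5%) and 58 of 188 hypo exon regions (30.9%). All 3 FP libraries were so in 34 of 73 hyper (46.6%) and 31 of 60 hypo regions (51.7%). All 3 pOsNAR2.1-OsNAR2.1 libraries were so in 59 of 138 hyper (42.8%) and 22 of 43 hypo regions (51.2%). Both directions together, this was 30.3% of exon regions in CK, against 31.0% of all CpG regions in the list. It was 48.9% in FP, against 45.2%, and 44.3% in pOsNAR2.1-OsNAR2.1, against 47.8%. In each list it was under 50% of the exon regions, and near the share of the list.

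**Figure D4:**
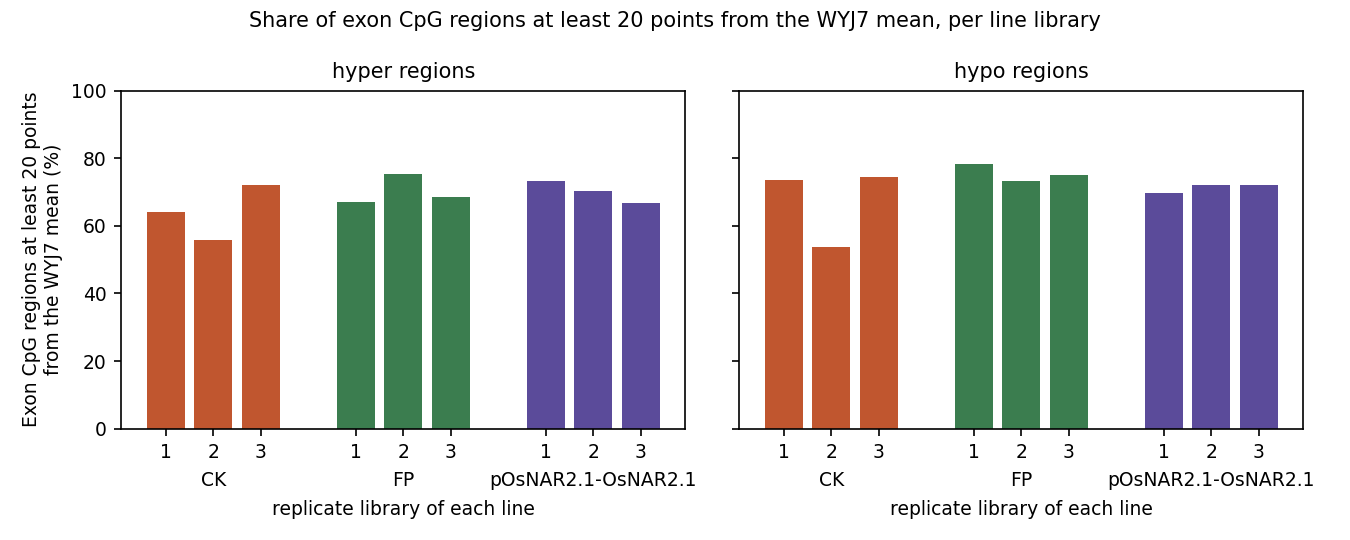
Share (%) of hyper and of hypo exon CpG regions 20 points or more from the WYJ7 mean, on the side called, for each replicate library. CK library 2 had the lowest bar in both panels, with 55.7% of hyper and 53.7% of hypo regions.

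Another reading, with no minimum size of the difference, asks that every library of the line lie beyond every WYJ7 library. In CK this held for 175 exon regions (69.7%, Wilson interval 63.8 to 75.1%), against 61.2% of all CpG regions in the list. In FP it held for 87 (65.4%), against 69.2%, and in pOsNAR2.1-OsNAR2.1 for 139 (76.0%), against 74.6%. The CK share lay above that of its list by more than counting error, while the FP and pOsNAR2.1-OsNAR2.1 shares lay within it. In CK the share was 67.2% of hyper exon regions, against 52.1% of the other hyper CpG regions, and 71.3% of hypo exon regions, against 64.4%. With a gap of at least 10 points asked for, 101 CK exon regions were left (40.2%, against 37.2% of all CpG regions), 64 in FP (48.1%, against 44.9%) and 98 in pOsNAR2.1-OsNAR2.1 (53.6%, against 51.1%). At that gap the CK share, too, was within counting error of its list (interval 34.4 to 46.4%). Members and the rest come from the same calls, so no test was made, and nothing particular to exons is read from these shares.

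The regions were short and held few CpGs. The median width of exon regions was 29 bp in CK, 20 bp in FP and 29 bp in pOsNAR2.1-OsNAR2.1, with a median of 4 CpGs in each list. At least 5 CpGs were present in 55 exon regions of CK, 22 of FP and 48 of pOsNAR2.1-OsNAR2.1. Some regions ran past the end of their exon, 42 of 251 in CK, 12 of 133 in FP and 39 of 183 in pOsNAR2.1-OsNAR2.1. Among EPlOSAG exons 41.3% of regions in CK, 40.9% in FP and 55.6% in pOsNAR2.1-OsNAR2.1 did so, and among OS locus exons 6.25%, 2.70% and 10.1%. The median absolute difference between line and WYJ7 was 26.7 points for CK hyper and 28.7 for CK hypo regions, 29.1 and 31.5 for FP, and 27.0 and 28.3 for pOsNAR2.1-OsNAR2.1.

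The regions named next are those with the largest differences of means among exon regions with at least 5 CpGs and no overlap between the line and WYJ7, 4 in each direction and list. Coordinates are on IRGSP-1.0. The gene identifiers are those of the deposited annotation, and no gene name or function could be attached to them here.

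In CK the largest of these was a loss. In an exon of EPlOSAG00000051961, the region chr2:22723803-22723816 had levels of 4.32%, 4.58% and 0% in CK, against 95.3%, 87.9% and 85.5% in WYJ7. All 3 CK libraries had lost nearly all methylation there, and it was the 1 exon region in any list with every WYJ7 library at 80% or more and every line library at 20% or less. Among all CpG regions this held for 2 of 4962 in CK, 1 of 2715 in FP and 0 of 3448 in pOsNAR2.1-OsNAR2.1. Such regions were thus rare in every list. The next, chr8:2773980-2774025 in an exon of OS08G0148300, had 7.69%, 22.0% and 0% in CK, against 53.1%, 72.5% and 61.8% in WYJ7. The region chr3:10856830-10856900 had 30.7%, 78.5% and 28.7% in CK, against 89.8%, 89.4% and 94.2% in WYJ7. There CK library 2 stayed near WYJ7 while the other CK libraries were low. The region chr1:39121969-39122125, with 14 CpGs, had 20.4%, 21.4% and 21.2% in CK, against 59.5%, 53.6% and 72.5% in WYJ7. The CK libraries agreed there within 1 point, on the largest number of CpGs of any region named for CK.

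The CK gains named by the rule were all under 30 points. The region chr1:22195692-22195721, in a 6263 bp exon of OS01G0575901, had 96.6%, 90.9% and 94.8% in CK, against 64.2%, 54.0% and 77.3% in WYJ7. A second region of that exon, chr1:22190146-22190176 with 4 CpGs, had 97.0%, 66.7% and 100% in CK, against 0%, 25.0% and 0% in WYJ7, a difference of 79.5 points. With fewer than 5 CpGs it fell outside the rule for the largest differences, and over all exon regions the CK gains and losses had like medians (26.7 and 28.7 points). Both ends of this long exon were therefore more methylated in CK, 1 from a partly methylated and 1 from a nearly unmethylated state. The region chr1:8721073-8721098 had 81.9%, 82.0% and 82.6% in CK, against 56.4%, 53.4% and 50.1% in WYJ7. The region chr6:2478386-2478414 in OS06G0147500 had 47.6%, 46.0% and 45.8% in CK, against 14.2%, 21.9% and 17.0% in WYJ7. Both had closely matched CK libraries. In the last, chr4:31781523-31781544, CK had 79.7%, 48.8% and 70.0%, against 21.7%, 48.0% and 46.5% in WYJ7, and CK library 2 exceeded the highest WYJ7 library by only 0.87 points.

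In pOsNAR2.1-OsNAR2.1 the largest difference named by the rule was a gain of 65.7 points. Over all exon regions of the list the largest was a loss of 67.7 points, in a region with fewer than 5 CpGs. The gain was at the region chr3:33681078-33681140, in an exon of OS03G0806300, which had 98.1%, 98.3% and 99.2% in the line, against 27.3%, 18.8% and 52.3% in WYJ7. It was almost fully methylated in the line, while the WYJ7 libraries themselves spread over more than 30 points. The region chr4:1336021-1336095, in OS04G0122000, had 71.2%, 53.8% and 57.9% in the line, against 17.9%, 15.2% and 13.0% in WYJ7. The region chr7:3011587-3011637 had 97.4%, 96.2% and 99.4% in the line, against 45.3%, 68.7% and 63.8% in WYJ7. The region chr3:33361906-33361993, with 11 CpGs, had 45.4%, 50.1% and 40.8% in the line, against 15.9%, 3.64% and 7.84% in WYJ7. The gains thus ended at near full methylation in some exons and near the middle of the range in others.

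Losses in pOsNAR2.1-OsNAR2.1 included exon regions with no methylation left. The region chr4:32404108-32404135, in OS04G0637000, had 0% in all 3 libraries of the line, against 60.2%, 72.5% and 16.7% in WYJ7. The region chr6:1580963-1581035, in OS06G0129800, also had 0% in all 3, against 35.4%, 24.7% and 33.3% in WYJ7. Others were uneven or partial. The region chr6:7292232-7292272 had 13.4%, 79.0% and 54.1% in the line, against 93.1%, 88.9% and 91.5% in WYJ7, and chr7:17757592-17757695 had 60.1%, 70.7% and 46.2%, against 88.7%, 88.3% and 86.4% in WYJ7. At chr6:7292232-7292272 the first library of the line was far below the other 2. In all, 15 of 183 exon regions of pOsNAR2.1-OsNAR2.1, 10 of 133 of FP and 10 of 251 of CK were at 0 in every library of the line. Those at 0 in WYJ7 too are included. Among all CpG regions these were 249 of 3448 in pOsNAR2.1-OsNAR2.1, 340 of 2715 in FP and 340 of 4962 in CK. Nothing particular to exons is read from these counts.

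In FP the largest of the named differences was a loss of 65.3 points. Over all exon regions of the list the largest was a gain of 76.6 points, in a region outside the rule. The loss was at the region chr5:6471045-6471073, in OS05G0203912, which had 0%, 10.0% and 0% in FP, against 63.7%, 69.8% and 72.6% in WYJ7. The region chr4:12504990-12505003, in OS04G0288100, had 0% in all 3 FP libraries, against 27.2%, 45.3% and 50.8% in WYJ7. These 2 exon regions were almost without methylation in FP. The region chr8:27665752-27665776 had 49.1%, 52.1% and 42.7% in FP, against 87.5%, 75.6% and 89.8% in WYJ7, and chr2:2866368-2866394 had 57.4%, 53.9% and 54.6%, against 90.0%, 87.6% and 92.3% in WYJ7. At these 2 regions FP kept an intermediate level.

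The named FP gains ran from 35.8 to 46.9 points, and the named losses from 34.7 to 65.3 points. The region chr3:30393479-30393506, in EPlOSAG00000041469, had 69.9%, 70.4% and 69.7% in FP, against 13.1%, 35.6% and 20.6% in WYJ7. The region chr1:1974327-1974384, in OS01G0136700, had 87.5%, 86.9% and 65.1% in FP, against 30.4%, 37.7% and 36.5% in WYJ7. The same region was listed for pOsNAR2.1-OsNAR2.1, with 71.2%, 65.7% and 38.3%. The region chr5:7732326-7732410, with 10 CpGs, had 56.2%, 51.0% and 45.8% in FP, against 11.5%, 4.67% and 21.3% in WYJ7, and chr5:17280936-17280967 had 49.0%, 42.8% and 38.9%, against 15.4%, 8.04% and 0% in WYJ7. In these last the FP exons were methylated to near the middle of the range, from low WYJ7 levels.

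Few genes held more than 1 exon region, 3 in CK, 3 in FP and 4 in pOsNAR2.1-OsNAR2.1, with 2 regions each. The 2 directions were the same in 6 of these 10 cases and opposite in 4 (2 in CK, 1 in FP and 1 in pOsNAR2.1-OsNAR2.1). In the 4705 bp exon of OS10G0406701, CK had 97.2%, 96.7% and 97.9% at chr10:13910563-13910569, against 27.8%, 70.9% and 71.5% in WYJ7. At chr10:13911314-13911327 in the same exon, CK had 0% in all 3 libraries, against 11.7%, 13.6% and 6.67% in WYJ7. One stretch was thus higher and another lower in the same plants, less than 1000 bp apart. This gene had exon regions in all 3 lists. FP had 92.5%, 89.3% and 88.0% at the first of these positions, and pOsNAR2.1-OsNAR2.1 had 57.3%, 59.6% and 66.4% at chr10:13911610-13911614, against 41.0%, 17.7% and 20.5% in WYJ7. In FP, by contrast, both regions of the 462 bp exon of OS05G0545900 were hyper. Its first, chr5:27104138-27104159, had 97.2%, 97.0% and 92.8% in FP, against 63.5%, 60.0% and 68.7% in WYJ7, and its second, chr5:27104189-27104249, had 95.4%, 92.3% and 90.8%, against 46.9%, 62.3% and 80.3% in WYJ7. The other opposite cases were OS06G0579600 in CK (means of 18.2% in CK, against 0% in WYJ7, and 58.4%, against 80.8%), OS12G0292200 in FP (24.0% in FP, against 0% in WYJ7, and 51.2%, against 79.4%) and OS11G0635000 in pOsNAR2.1-OsNAR2.1 (63.1% in the line, against 81.0% in WYJ7, and 86.3%, against 63.8%). Both regions were hyper in OS06G0579600 in FP (33.5% in FP, against 0% in WYJ7, and 84.0%, against 43.8%). In pOsNAR2.1-OsNAR2.1 both were hyper in OS09G0540350 (29.4% in the line, against 7.61% in WYJ7, and 69.9%, against 42.3%) and in OS10G0341401 (7.43%, against 0%, and 93.4%, against 70.4%), and both hypo in OS01G0196800 (68.2%, against 83.0%, and 0%, against 27.4%).

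Some genes had an exon region and another listed region in an intron or upstream. The 2 had the same direction in 15 of 16 pairs in CK, 5 of 5 in FP and 8 of 10 in pOsNAR2.1-OsNAR2.1. The CK pairs came from 12 exon regions and the pOsNAR2.1-OsNAR2.1 pairs from 9, so some regions entered more than 1 pair. These 2 lists were also one-sided, as 71.5% of all CpG regions listed for CK were hypo. For the transgenic line 78.0% were hyper. Unrelated regions would therefore often share a direction. Whether these pairs did so more often was not tested.

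Few of the genes with exon regions were shared between lists. The overlap in the other classes is not given here, so nothing particular to exons is read from this. CK and pOsNAR2.1-OsNAR2.1 shared 33 genes with exon regions, which is 13.3% of the CK genes and 18.4% of the pOsNAR2.1-OsNAR2.1 genes. CK and FP shared 20 (8.06% of the CK and 15.4% of the FP genes). The lines from 1 regenerated plant, pOsNAR2.1-OsNAR2.1 and FP, shared 22 (12.3% of the pOsNAR2.1-OsNAR2.1 and 16.9% of the FP genes). Exon regions of all 3 lists lay in 8 genes. All these comparisons share the WYJ7 libraries, so an overlap is no independent support for either list.

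At 33 positions the same exon region stood in more than 1 list, which sets the lines side by side. CK and pOsNAR2.1-OsNAR2.1 shared 19 positions, of which 10 were hyper in both and 5 hypo in both. CK and FP shared 10, of which 6 were hyper in both and 2 hypo in both. pOsNAR2.1-OsNAR2.1 and FP also shared 10, of which 5 were hyper in both and 1 hypo in both. At the remaining 4 the line with the transgene was hyper and the line without it hypo.

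At those 4 positions no library of pOsNAR2.1-OsNAR2.1 overlapped a library of FP. The region chr2:18824654-18824669, in a 1512 bp exon of OS02G0518000, had 71.0%, 72.5% and 72.0% in pOsNAR2.1-OsNAR2.1 and 0% in all 3 FP libraries, against 24.9%, 31.4% and 22.0% in WYJ7. WYJ7 lay between the lines there, with a small spread in all 3 groups. In OS01G0257300 (chr1:8586421-8586434) pOsNAR2.1-OsNAR2.1 had 83.3%, 100% and 94.1%, and FP had 0%, 0% and 59.8%, against 23.6%, 82.6% and 84.6% in WYJ7. Here both FP and WYJ7 were uneven, and a WYJ7 library reached the range of the transgenic line. In OS07G0471300 (chr7:16898511-16898521) pOsNAR2.1-OsNAR2.1 had 89.3%, 50.5% and 86.5%, and FP had 0%, 21.1% and 0%, against 53.1%, 20.6% and 38.5% in WYJ7. In OS07G0491800 (chr7:18330613-18330624) pOsNAR2.1-OsNAR2.1 had 40.8%, 24.2% and 34.6%, and FP had 0% in all 3 libraries, against 0%, 20.3% and 8.65% in WYJ7. In both of these the FP libraries reached into the WYJ7 range.

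The last 2 positions were also listed for CK, with differing results. At OS07G0471300 CK had 0%, 67.7% and 8.82%, so that CK library 2 was near the transgenic line and the others near FP. At OS07G0491800 CK had 25.2%, 56.5% and 46.4%, all above WYJ7. CK and pOsNAR2.1-OsNAR2.1 were on opposite sides of WYJ7 in an exon of OS12G0180600 (chr12:4061944-4061992), where CK had 58.9%, 72.9% and 77.9% and pOsNAR2.1-OsNAR2.1 had 0% in all 3 libraries, against 20.4%, 38.9% and 21.8% in WYJ7. They were also on opposite sides in EPlOSAG00000025527 (chr1:11666948-11666983), where CK had 17.4%, 0% and 11.8% and pOsNAR2.1-OsNAR2.1 had 55.8%, 56.7% and 60.5%, against 47.8%, 32.3% and 50.4% in WYJ7. At the first of these positions the groups were well separated, and at the second the transgenic line exceeded the highest WYJ7 library by 5.42 points. The means of CK and FP were on opposite sides of WYJ7 in OS03G0109900 (chr3:575957-575972). CK had 83.0%, 46.3% and 75.3% there, and FP had 0%, 21.4% and 0%, against 47.9%, 63.2% and 51.7% in WYJ7. CK library 2 was below all WYJ7 libraries at that position.

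One position was hyper in all 3 lists. The region chr8:19942109-19942123, in an exon of EPlOSAG00000050507, had 93.6%, 89.0% and 94.4% in CK. It had 90.1%, 94.1% and 85.7% in pOsNAR2.1-OsNAR2.1, and FP had 83.8%, 84.8% and 95.8%, against 67.8%, 51.5% and 31.0% in WYJ7. All 9 libraries of the 3 lines were above all 3 of WYJ7, which spread over more than 36 points. The WYJ7 values are the same in each list, so the 3 comparisons are not independent. Elsewhere the 3 lists named the same gene with the same direction at neighbouring or overlapping positions. In OS01G0899425 the regions starting at chr1:39121969 were hypo in all 3, at means of 21.0% (CK), 35.6% (pOsNAR2.1-OsNAR2.1) and 32.9% (FP), against WYJ7 means of 61.8%, 62.4% and 54.9% over the cytosines of each. The FP region there held 4 CpGs, and its FP libraries overlapped WYJ7. In OS04G0122000 overlapping regions of the same exon were hyper in all 3, at means of 30.5% (CK), 61.0% (pOsNAR2.1-OsNAR2.1) and 49.2% (FP), against WYJ7 means of 17.6%, 15.4% and 19.98%. CK library 2 was at 0% in the last, so CK overlapped WYJ7. The exon regions of OS01G0254950 were hypo in all 3, at means of 4.44% (CK), 11.5% (pOsNAR2.1-OsNAR2.1) and 31.3% (FP), against WYJ7 means of 36.0%, 36.0% and 50.3%. FP and the transgenic line overlapped WYJ7 there. Those of OS02G0607500, which lay in 2 different exons, were hyper in all 3, at means of 83.4% (CK), 80.4% (pOsNAR2.1-OsNAR2.1) and 50.3% (FP), against WYJ7 means of 59.8%, 59.8% and 27.4%. There, too, only the CK libraries were free of overlap, by 0.33 points.

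**Figure D5:**
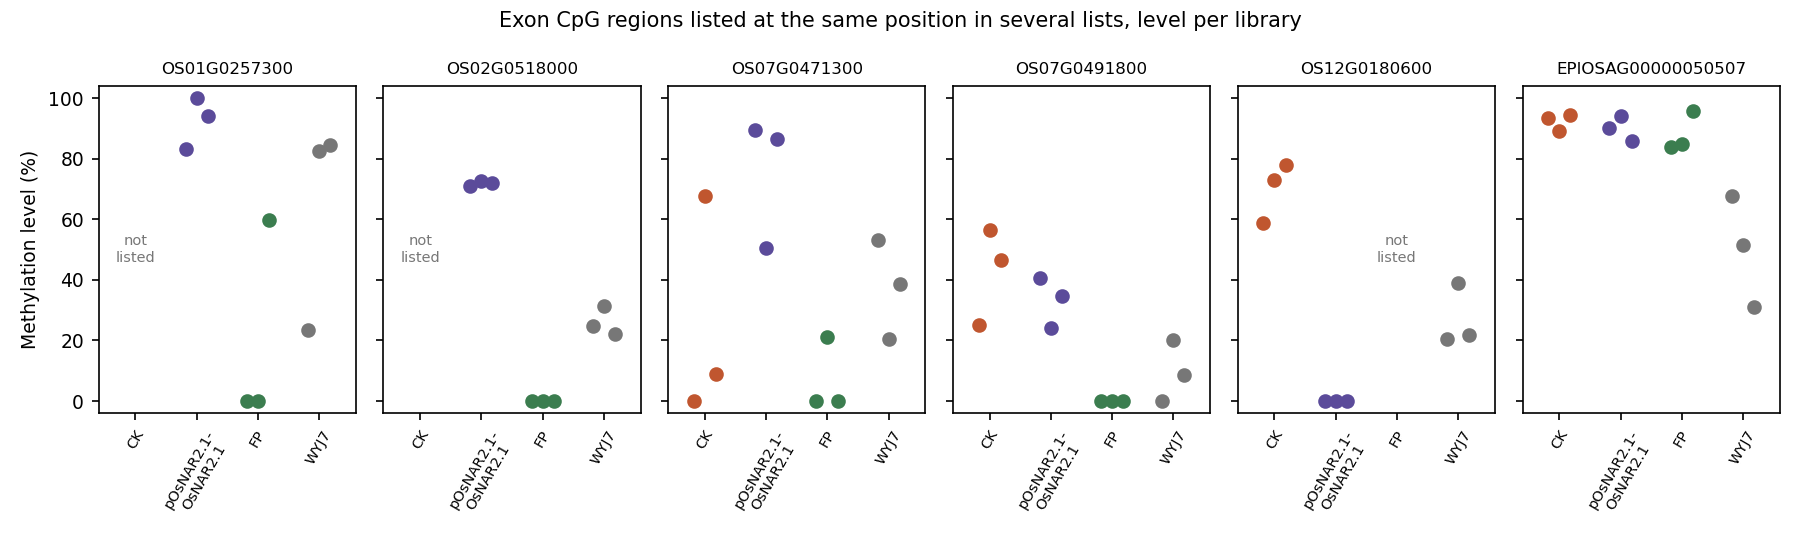
Methylation level (%) in each library at 6 exon CpG regions that stood at the same position in several lists, titled by gene. Points are single libraries of CK, pOsNAR2.1-OsNAR2.1, FP and WYJ7, and "not listed" marks a line whose list did not hold the region. In OS02G0518000 the transgenic line sits near 72%, FP at 0 and WYJ7 between them.

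Exon regions were also looked for in genes of nitrogen uptake and of DNA methylation. These lists of IDs could not be checked against gene names here. Of 15 locus IDs taken for nitrate and ammonium transport and assimilation, 0 had an exon CpG region in any list. Of 9 locus IDs taken for DNA methyltransferases, demethylases and the DDM1 proteins, 0 did. Only 248 genes in CK, 130 in FP and 179 in pOsNAR2.1-OsNAR2.1 had an exon region. A count of 0 among so few IDs therefore says little. With any class of listed region, 1 of the 15 was present for FP, 1 for pOsNAR2.1-OsNAR2.1 and 0 for CK, and 1 of the 9 was present for CK. Only called regions are in the lists, so the level of these exons was not measured here.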

How the data were processed

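WGBS was done on 12 libraries, 3 each of CK, FP, pOsNAR2.1-OsNAR2.1 and WYJ7. The 3 MeDIP-seq samples were not analysed here. Per the labels and the study's methods, the authors mapped the reads with Bismark 0.9.0 to IRGSP-1.0, kept uniquely mapped reads, dropped cytosines with a depth under 5, and called DMRs with methylKit and eDMR. The deposited values are methylation levels in percent, 1 for each region and library, and the mean over the cytosines of the region. Because cytosines under the depth limit were dropped and only called regions were deposited, the exons that did not differ are not in view, and levels at short regions rest on few cytosines. The lists also hold the authors' own differences, p-values, q-values, numbers of differential cytosines and hyper or hypo calls, which were not used.

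Exon rows of class CpG with a gene identifier were kept, read through pandas 2.3.3 in Python 3.11.15. Group means, SDs over libraries, direction and overlap were computed from the levels, and the code was tested on simulated data. The second interval of an exon row was taken as the exon, since it abuts the intron interval of the same gene in several cases. None of the 490 genes matched the gene table used for names (assembly ASM3414082v1), so genes could not be grouped by product, and no genome sequence was used. Members, lists of genes and rules were chosen with earlier results of these data known. Regions are named by a fixed rule, namely the 4 exon regions per list and direction with the largest difference of means among those with at least 5 CpGs and no overlap, genes with exon regions in all 3 lists, and genes with more than 1. Other regions at the same position in several lists were chosen after their values were seen. Where nothing states that FP, pOsNAR2.1-OsNAR2.1 or WYJ7 libraries came from separate plants, the SDs may be technical. Alternatives were the median, other limits on difference and CpGs, 1 region per gene, weights by CpGs and leaving out each library.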

Additional observations from a re-analysis of the deposited data

Results flagged for a closer look

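At 6 exon positions, every library of a line was on the far side of the WYJ7 mean from every library of another line, in 7 pairs of lines. None of these differences between lines was tested, and the positions were chosen by contrasts that include both lines. Mean levels are given for each.

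Between pOsNAR2.1-OsNAR2.1 and FP, which come from the same regenerated plant, the difference was 72.5 points in OS01G0257300 (92.5% in pOsNAR2.1-OsNAR2.1 and 19.9% in FP, with WYJ7 at 63.6%). It was 71.9 points in OS02G0518000 (71.9% in pOsNAR2.1-OsNAR2.1 and 0% in FP, with WYJ7 at 26.1%) and 68.4 points in OS07G0471300 (75.5% in pOsNAR2.1-OsNAR2.1 and 7.02% in FP, with WYJ7 at 37.4%). In OS07G0491800 it was 33.2 points (33.2% in pOsNAR2.1-OsNAR2.1 and 0% in FP, with WYJ7 at 9.64%).

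CK and FP differed by 42.7 points in OS07G0491800, where CK averaged 42.7% and FP 0%. CK minus pOsNAR2.1-OsNAR2.1 was 69.9 points in OS12G0180600, where CK averaged 69.9% and pOsNAR2.1-OsNAR2.1 0%, with WYJ7 at 27.1%. It was -48.0 points in EPlOSAG00000025527, where CK averaged 9.71% and pOsNAR2.1-OsNAR2.1 57.7%, with WYJ7 at 43.5%. These regions hold few CpGs, and their depth is unknown.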

How the results depend on the processing

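Of 141 alternative values, 125 moved by less than the spread or counting interval, or by less than 1.5 times for a count, 15 moved by more and 1 reversed. Many of the 125 could not have moved by more, so the count is no measure of stability. Leaving out a library cannot shift a mean level or the exon excess by as much as the SD. The setting that kept only rows naming an exon held the same regions. No paired analysis was possible because no result comes from a test. The alternative that keeps regions with a q-value under 0.01 was not run, since it rests on the authors' own comparison columns. With at least 5 CpGs, the hyper share was 83.3% in pOsNAR2.1-OsNAR2.1 against 75.4% of all its exon regions, and 50 regions of CK, 16 of FP and 40 of pOsNAR2.1-OsNAR2.1 were without overlap, since fewer regions enter. A gap of at least 10 points left 101 in CK. Weighting by CpGs gave WYJ7 37.1% in CK hyper and 37.1% in pOsNAR2.1-OsNAR2.1 hyper regions, and in pOsNAR2.1-OsNAR2.1 hypo regions 33.2% in the line and 63.2% in WYJ7. The exon excess in WYJ7, tried under settings chosen after seeing the data, was 13.6 points in CK hyper, 7.71 in CK hypo and 1.097 in pOsNAR2.1-OsNAR2.1 hypo regions with at least 5 CpGs. With EPlOSAG IDs left out of exon and other regions alike, it was 4.63 in CK hyper, 6.95 in FP hypo and 1.62 in pOsNAR2.1-OsNAR2.1 hyper regions. In pOsNAR2.1-OsNAR2.1 hypo regions it was, reversed, -1.24. Leaving out each library in turn gave a hyper share of 23.5 to 24.7% in CK, 52.6 to 54.1% in FP and 74.9 to 76.0% in pOsNAR2.1-OsNAR2.1. It gave 179 to 223 regions without overlap in CK, 92 to 101 in FP and 143 to 156 in pOsNAR2.1-OsNAR2.1. With all libraries these counts were 175, 87 and 139. Leaving out a library can only keep or raise such a count, so these ranges are no check of it. The unknown depth and the low number of CpGs limit every single region.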
